A study of Mus musculus with 42 samples.

Results

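The genes described here are 42 that encode proteins of the nucleolar pathway of ribosome production, followed through RNA sequencing counts of mouse thymus, intestine, liver and pancreas. They were taken by name from a count table of 49585 genes, through Ensembl identifiers matched to GENCODE symbols. The list was drawn up with earlier results in view: Dkc1 and Gnl3 were already known to be lower in irradiated thymus with a wild-type p53 allele than in irradiated thymus without one. Every comparison with those libraries on either side is therefore a description. Adjusted and unadjusted p thresholds serve there only to count genes beside the same share of all genes, and no p-value is printed. Tests are kept for the others, although the list was chosen with earlier results of these data known. Some of these tests also take their spread from fits that include those libraries. Of the 42 genes, 41 had enough counts to be tested in every tissue, and the exception was Wdr74, a factor of large-subunit maturation, which had 57 counts in all 42 libraries together and at most 6 in any of them.

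The 42 libraries came from mice aged 4 weeks, of mixed BALB/C and C57BL6 background, that differed at the p53 locus. Het mice were p53 +/-, AD and RP mice carried the p53 AD or p53 RP allele over a null allele (AD/- and RP/-), and Null mice were p53-null. Irradiated thymus, collected 4 h after exposure, came from 4 Het, 4 AD, 4 RP and 4 Null mice. Basal thymus, from mice that were not irradiated, was sampled in 3 Het, 3 AD and 2 Null mice. For basal intestine, for liver and for pancreas there were 3 AD and 3 Null mice each. The alterations were in the germline, so every cell type of each tissue carried them, and basal and irradiated thymus came from different animals. Libraries carry the genotype and the number of the mouse, such as Het-594. Libraries held 26.4 to 33.3 M counts (M, 1e6) in thymus, 24.3 to 34.8 M in intestine, 26.0 to 32.5 M in liver and 19.9 to 24.8 M in pancreas. Trp53 transcript stood at 29.9 to 38.4 CPM (counts per 1e6, on TMM-scaled library sizes) in irradiated thymus with a Het, AD or RP genotype, against 18.8 to 21.1 CPM in irradiated Null thymus, so the transcript was lower but not absent in Null thymus. It did not separate the genotypes in basal liver (5.21 to 5.75 CPM in AD and 3.89 to 5.63 CPM in Null) or in basal pancreas (5.65 to 8.65 CPM in AD and 8.18 to 9.58 CPM in Null).

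Ribosomes are assembled in the nucleolus, where RNA polymerase I transcribes a long precursor of the ribosomal RNAs. Small nucleolar ribonucleoproteins of the box C/D and box H/ACA classes modify that precursor, a large processome cuts and folds the part that becomes the small subunit, and a second set of factors matures the large subunit. The genes of this pathway are known targets of Myc, their products are needed in quantity by dividing cells such as immature thymocytes, and a disturbed nucleolus is a known trigger of p53 stabilisation.

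Promoters are shown for Dkc1, Gnl3 and Polr1b, the members with the lowest fold changes in irradiated Het over Null thymus, and for Nop2 and Grwd1, a pair of members that carry CACGTG, the E-box read by Myc and other factors of its class. RefSeq windows on GRCm38.p6, each reaching from 250 bases before the annotated start to 50 bases after it, were found for 35 of the 42 genes. CACGTG, which is its own reverse complement, was present in 8 of the 35, or 22.9%, against 8.09% of 27025 genes in the same table. The 8 were Grwd1, Imp4, Mybbp1a, Nop2, Pes1, Tsr1, Utp20 and Wdr43. GGGCGG, searched on both strands, was present in 25 of the 35, or 71.4%, against 38.2% of all genes, and the GC content of the windows had a median of 58.0% against 52.7% for all windows. The motif shares were not adjusted for that difference in GC content. In the sequences below, capitals mark CACGTG, which the windows of Dkc1, Gnl3 and Polr1b lack. Nop2 lies at chr6:125131633-125131932 (plus strand), Grwd1 at chr7:45830740-45831039 (minus strand), Dkc1 at chrX:75095604-75095903 (plus strand), Gnl3 at chr14:31019082-31019381 (minus strand) and Polr1b at chr2:129100746-129101045 (plus strand).
Nop2: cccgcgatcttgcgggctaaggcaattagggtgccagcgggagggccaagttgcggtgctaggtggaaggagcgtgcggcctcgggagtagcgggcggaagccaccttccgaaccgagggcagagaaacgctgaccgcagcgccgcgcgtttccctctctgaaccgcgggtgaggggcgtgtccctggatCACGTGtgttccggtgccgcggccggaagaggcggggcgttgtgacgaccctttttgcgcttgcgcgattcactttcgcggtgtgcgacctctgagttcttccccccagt
Grwd1: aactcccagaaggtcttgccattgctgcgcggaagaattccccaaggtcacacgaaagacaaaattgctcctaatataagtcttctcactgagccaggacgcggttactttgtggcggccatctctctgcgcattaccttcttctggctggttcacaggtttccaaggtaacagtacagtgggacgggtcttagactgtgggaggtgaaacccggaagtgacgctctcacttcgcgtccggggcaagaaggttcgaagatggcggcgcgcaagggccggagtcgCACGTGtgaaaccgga
Dkc1: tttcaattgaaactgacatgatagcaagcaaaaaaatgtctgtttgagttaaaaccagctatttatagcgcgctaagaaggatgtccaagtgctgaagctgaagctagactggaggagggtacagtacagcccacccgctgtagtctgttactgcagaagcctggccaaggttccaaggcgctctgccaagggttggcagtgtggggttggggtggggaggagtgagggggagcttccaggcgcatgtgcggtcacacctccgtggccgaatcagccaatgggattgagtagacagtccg
Gnl3: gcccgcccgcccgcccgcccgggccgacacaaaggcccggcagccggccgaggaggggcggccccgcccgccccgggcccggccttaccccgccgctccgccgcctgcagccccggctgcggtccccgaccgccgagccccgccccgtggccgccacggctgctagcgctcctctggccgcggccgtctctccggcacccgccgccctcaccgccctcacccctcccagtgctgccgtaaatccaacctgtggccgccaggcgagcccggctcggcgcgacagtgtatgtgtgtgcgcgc
Polr1b: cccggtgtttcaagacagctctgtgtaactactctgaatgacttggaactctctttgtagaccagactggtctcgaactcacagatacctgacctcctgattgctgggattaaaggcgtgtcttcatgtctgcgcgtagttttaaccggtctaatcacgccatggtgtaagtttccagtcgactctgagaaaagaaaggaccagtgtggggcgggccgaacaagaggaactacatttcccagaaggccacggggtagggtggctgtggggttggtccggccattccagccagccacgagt

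Before the comparisons, the thymus libraries were set side by side, because one of them stood apart. The mean deviation of the 41 tested genes from their average over the 24 thymus libraries, on the scale of log2(CPM + 0.5), was 0.57 in irradiated Null-604. In the other 3 irradiated Null libraries it lay between -0.04 and 0.01. Null-604 was the highest of the 4 irradiated Null libraries for 39 of the 41 genes, with Bysl and Wdr12 as exceptions, and the highest of all 24 thymus libraries for 33. Of all genes tested, 32.7% were highest in Null-604 among those 4 libraries. In irradiated Het the mean deviation was -0.38 to -0.61, lowest in Het-631, and in irradiated AD and RP it was -0.13 to 0.01 and 0.05 to 0.13. In basal thymus it was 0.10 to 0.15 in Het, 0.08 to 0.22 in AD and 0.21 to 0.30 in Null. For comparisons with irradiated Null, counts of called members and medians are therefore also given without Null-604. So are the genes that moved by over 1.5 times in irradiated Het over Null. Comparisons among irradiated Het, AD and RP are given with Null-604 in their fit.

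**Figure D1:**
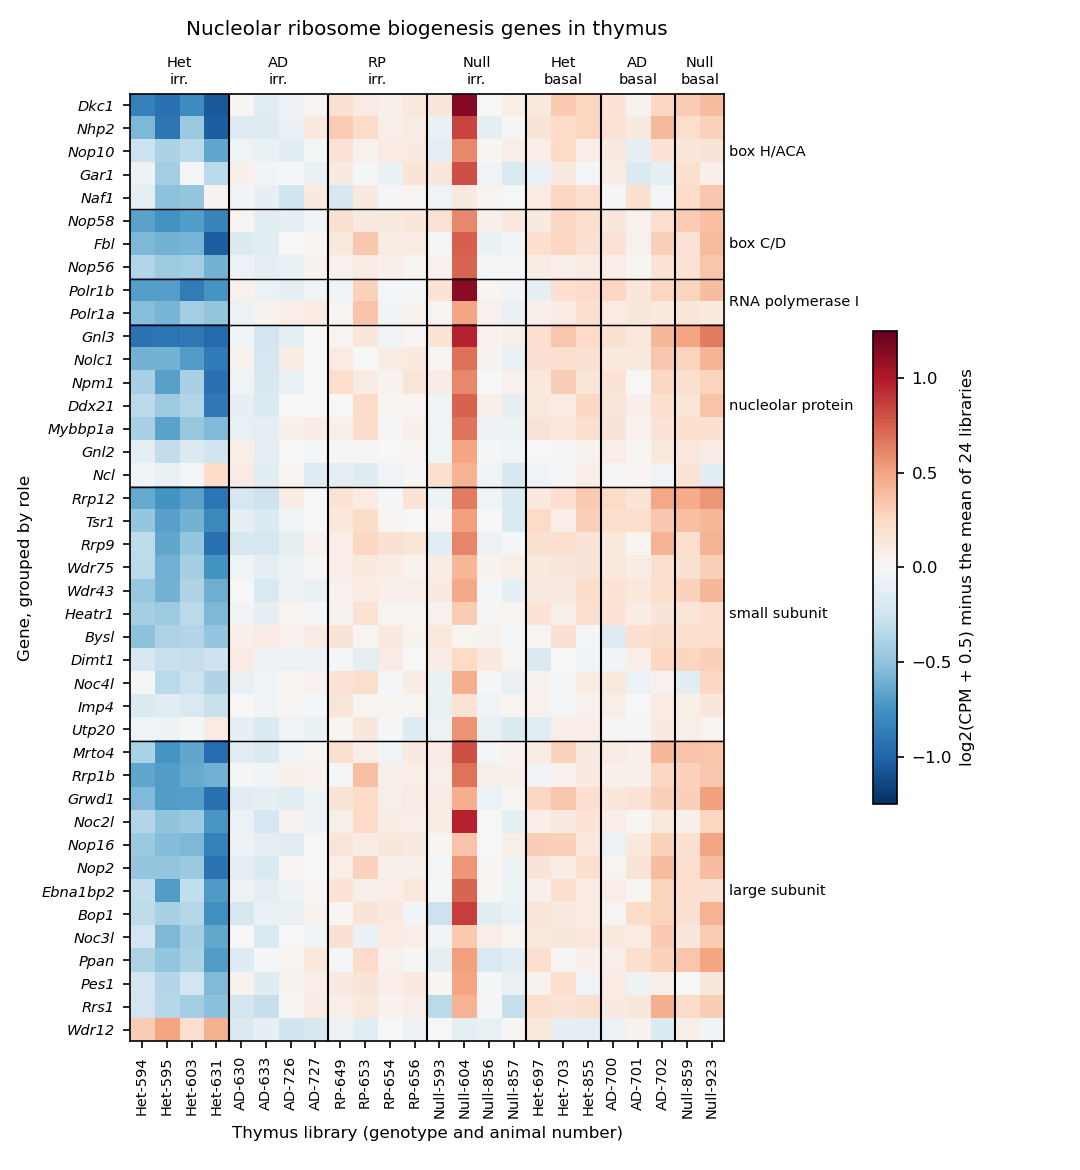
Level of 41 nucleolar genes (rows, grouped by role) in 24 thymus libraries (columns, grouped by genotype and irradiation), as log2(CPM + 0.5) minus the gene's mean over the 24 libraries. Nearly all rows are blue in the 4 irradiated Het libraries, Wdr12 in the last row is red there, and the column of Null-604 is red in almost every row.

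In irradiated Het thymus, most of the pathway stood well below its level in irradiated Null thymus, across every functional class. By edgeR's quasi-likelihood test with a Benjamini-Hochberg adjusted p under 0.05, referred to below as a call, 34 of the 41 genes were lower and 1, Wdr12, was higher, against 9.38% lower and 9.79% higher among all 22206 genes tested. The median log2 fold change of the 41 was -0.68, against -0.01 for all genes tested. Without Null-604, 33 were called lower and Wdr12 higher, with 7.82% of all genes called lower, and the median was -0.50. In 34 of the 41 genes all 4 Het libraries lay below all 4 Null libraries, where 9.14% of all genes did so. Because the list was drawn up with part of this difference known, these counts describe it and do not test it. In bulk tissue a smaller share of the cells that express these genes and less RNA per cell cannot be told apart.

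Dkc1 encodes dyskerin, the pseudouridine synthase of box H/ACA particles and of telomerase. It stood at 50.0, 46.9, 52.1 and 43.4 CPM in the 4 irradiated Het libraries, against 99.8, 201, 90.4 and 95.3 CPM in irradiated Null. All 4 Het libraries were below every Null library, and the 201 CPM of Null-604 was more than any other thymus library reached. The log2 fold change was -1.33 ± 0.19 (SE), and -0.98 ± 0.07 without Null-604. Of its partners in the particle, Nhp2 was at -0.95 ± 0.19 and Nop10 at -0.59 ± 0.12, both called lower. Gar1, the fourth core protein, and Naf1, which assists assembly, were at -0.46 ± 0.18 and -0.30 ± 0.14, and their Het and Null libraries overlapped. Without Null-604, Gar1 was at -0.19 ± 0.13.

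The 3 core proteins of the box C/D particle were all called lower. Nop58 stood at 72.0, 67.9, 70.4 and 64.7 CPM in irradiated Het, against 130, 174, 120 and 125 CPM in irradiated Null, a log2 fold change of -1.0 ± 0.09. The Het libraries formed a narrow band well below the Null libraries. Fbl, the methyltransferase fibrillarin, was at -0.89 ± 0.16 and the scaffold Nop56 at -0.68 ± 0.13. Fbl was lowest in Het-631 with 11.9 CPM, against 16.4 to 16.6 CPM in the other 3 Het libraries. Both subunits of RNA polymerase I on the list were lower. Polr1b, the second largest subunit, stood at 15.2, 15.2, 13.3 and 14.6 CPM in irradiated Het, against 27.9, 54.7, 25.2 and 24.1 CPM in irradiated Null. Its log2 fold change of -1.18 ± 0.20 was -0.82 ± 0.09 without Null-604, and that of Polr1a, the largest subunit, was -0.65 ± 0.11.

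Among the abundant nucleolar proteins, Gnl3, the GTP-binding protein nucleostemin, was as low as Dkc1. It stood at 26.0, 26.2, 26.6 and 25.3 CPM in irradiated Het, against 56.0, 97.6, 51.7 and 52.3 CPM in irradiated Null, a log2 fold change of -1.31 ± 0.15, or -1.04 ± 0.07 without Null-604. The 4 Het libraries were nearly alike, and all were below every Null library. Npm1, the histone chaperone nucleophosmin and the most abundant member, stood at 436, 359, 435 and 301 CPM in irradiated Het, against 614, 874, 572 and 599 CPM in irradiated Null (log2 fold change -0.79 ± 0.13). Nolc1, a chaperone of small nucleolar particles, was at -0.89 ± 0.13, and Mybbp1a, a Myb-binding nucleolar protein, at -0.68 ± 0.13. The RNA helicase Ddx21 was at -0.69 ± 0.16 (-0.46 ± 0.11 without Null-604) and the GTPase Gnl2 at -0.33 ± 0.10 (-0.18 ± 0.06 without Null-604). Each of these was called lower. Ncl did not share the difference. Nucleolin, its product, is a major nucleolar RNA-binding protein, and its transcript stood at 198, 190, 202 and 239 CPM in irradiated Het, against 234, 275, 198 and 176 CPM in irradiated Null (-0.09 ± 0.11, and 0.03 ± 0.09 without Null-604).

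Of 11 factors of small-subunit assembly, 9 were called lower. Rrp12, an export factor, was lowest at -0.89 ± 0.15, followed by the GTPase-like Tsr1 (-0.75 ± 0.12), the U3 particle protein Rrp9 (-0.72 ± 0.15) and the processome proteins Wdr75 (-0.69 ± 0.09), Wdr43 (-0.64 ± 0.10) and Heatr1 (-0.55 ± 0.07). Also called were Bysl, a late assembly factor (-0.49 ± 0.06), the rRNA dimethyltransferase Dimt1 (-0.40 ± 0.08) and the U3 particle protein Imp4 (-0.22 ± 0.06), the last of which was not called without Null-604. Noc4l was at -0.32 ± 0.11 (-0.17 ± 0.09 without Null-604) and not called. Utp20, another processome protein, was at -0.09 ± 0.12 with all libraries and at 0.11 ± 0.07 without Null-604. Of 13 tested factors of large-subunit assembly, 11 were called lower. They included Mrto4 (-0.96 ± 0.16), Rrp1b (-0.91 ± 0.12), the histone-binding Grwd1 (-0.88 ± 0.11), Nop16 (-0.74 ± 0.09) and the RNA methyltransferase Nop2 (-0.73 ± 0.13), which together with Grwd1 has one of the promoters printed above. Bop1 and Pes1, which act together with Wdr12 in the PeBoW complex, were at -0.63 ± 0.19 and -0.46 ± 0.11, and both were called. Bop1 rested largely on Null-604, without which it was at -0.29 ± 0.09. Noc2l (-0.82 ± 0.18), Ebna1bp2 (-0.70 ± 0.15), Noc3l (-0.57 ± 0.10) and Ppan (-0.54 ± 0.13) completed the members called lower, and Rrs1, at -0.37 ± 0.14, was not called. Without Null-604, Noc2l was at -0.51 ± 0.08, Ppan at -0.34 ± 0.09 and Rrs1 at -0.18 ± 0.11.

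Wdr12 went the other way. The third PeBoW subunit stood at 156, 177, 145 and 171 CPM in irradiated Het, against 125, 116, 118 and 127 CPM in irradiated Null. Every Het library was above every Null library, Null-604 was not high for this gene, and the log2 fold change was 0.42 ± 0.06, or 0.40 ± 0.07 without Null-604. It was the single member called higher.

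**Figure D2:**
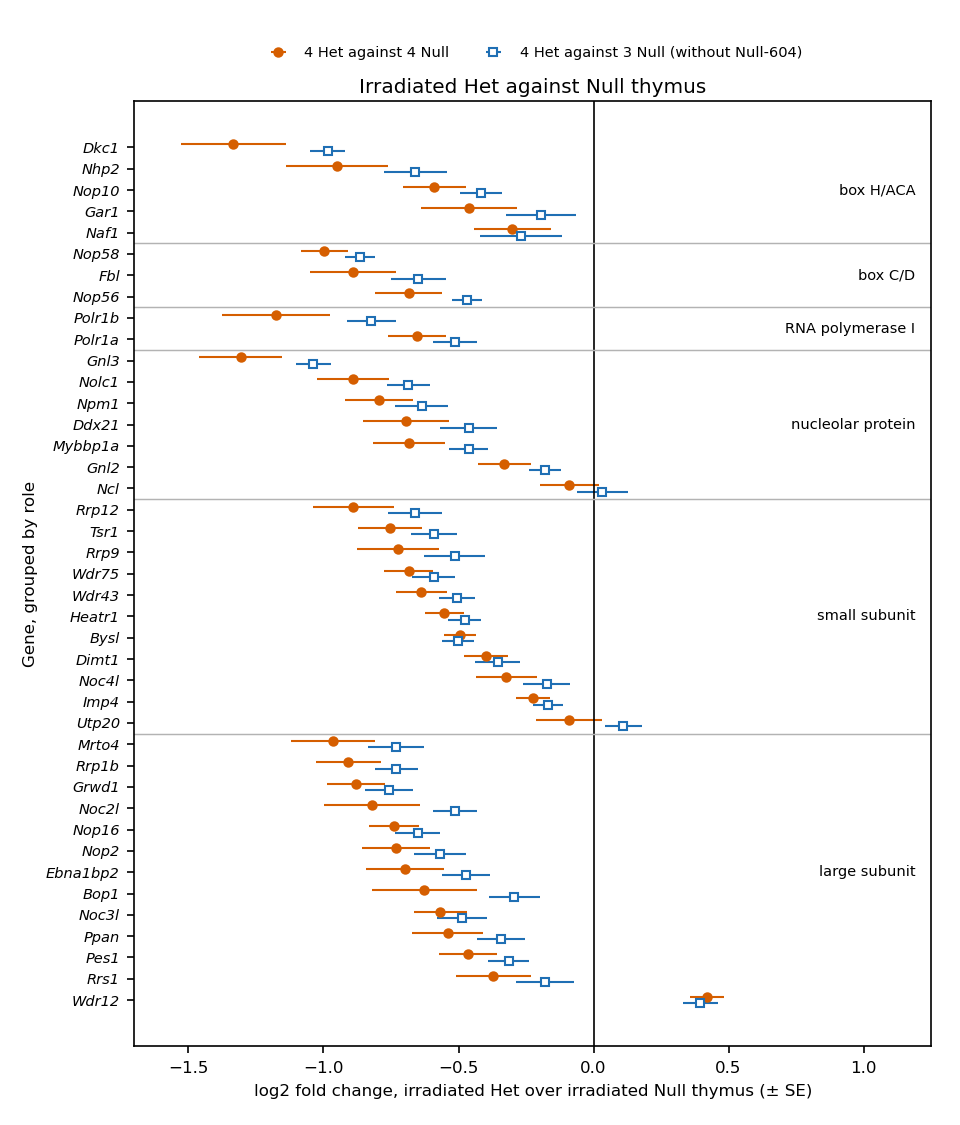
Log2 fold change (± SE) of each gene in irradiated Het over irradiated Null thymus, with all 4 Null libraries (filled circles) and without Null-604 (open squares). Most values shrink toward 0 without Null-604 and stay negative, Ncl and Utp20 cross 0, and Wdr12 stays above 0.

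Genes of the same pathway outside the list, chosen by role and also with earlier results known, were lower to a smaller extent. Of 110 tested, 62 were called lower and 1 higher, with a median of -0.33, where 9.38% of all genes were called lower and 9.79% higher. Without Null-604 the numbers were 55 and 3, with a median of -0.25. The lowest were the nucleolar protein Lyar (-1.01 ± 0.13), the large-subunit factor Rpf2 (-0.91 ± 0.15) and the RNA acetyltransferase Nat10 (-0.92 ± 0.16). The 1 called higher was Snhg15, which hosts a small nucleolar RNA (2.34 ± 0.17). Cd3eap, a subunit of RNA polymerase I, was at -0.69 ± 0.15. Of 79 ribosomal protein genes, 12 were called lower and 1, Rps19, higher (0.51 ± 0.14), with a median of -0.26. Without Null-604 only 4 ribosomal protein genes were called lower and 1 higher, and their median was -0.09. In that fit 7.82% of all genes were called lower and 8.62% higher, so ribosomal protein genes were called no more often than all genes.

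Markers of other cells moved in the same comparison. All 10 thymic epithelial markers had a positive log2 fold change in irradiated Het over Null, 4 were called higher, among them Krt8 (0.91 ± 0.07), and their summed level was 1492 to 1848 CPM in irradiated Het, against 1040 to 1161 CPM in irradiated Null. All 10 macrophage markers were positive and 3 were called, with sums of 554 to 1110 CPM in irradiated Het, lowest in Het-631, against 617 to 770 CPM in irradiated Null. All 12 proliferation markers were negative and 6 were called lower, among them Ccnb1 (-0.88 ± 0.15), with sums of 3558 to 5522 CPM in irradiated Het, highest in Het-631, against 4875 to 5451 CPM in irradiated Null. The 12 thymocyte markers had sums of 9918 to 12889 CPM in irradiated Het, against 8700 to 10975 CPM in irradiated Null, lowest in Null-604. Single thymocyte markers did not follow the sum: without Null-604, 8 of the 12 were negative and 4 positive, with a median of -0.07, and 1 was called higher. None of these markers was at 0 in all libraries of a thymus group, and their part in the difference of the nucleolar genes was not tested. Without Null-604, 4 epithelial and 4 macrophage markers were called higher and 6 proliferation markers lower. In that fit 8.62% of all genes were called higher and 7.82% lower, against 9.79% and 9.38% with all libraries. Without Het-631 the count of called members was 35, the same as with it, and the median was -0.62. With all libraries, 19.2% of all genes were called in either direction.

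The irradiated AD and RP libraries did not show the low levels of Het. Against irradiated Null, edgeR called no member in AD, where 0.027% of all genes were called (0.0225% higher, 0.0045% lower), and none in RP, where 0.0315% were called (0.0225% higher, 0.00901% lower). DESeq2 called 0 in both, and 14 members in AD and 1 in RP were lower at an unadjusted p under 0.05, where 7.99% and 5.18% of all genes passed that threshold. Without Null-604, edgeR called no member in AD or RP, where 0.0177% of all genes were called in each. The unadjusted threshold was then passed by 3 members in AD, all lower (5.84% of all genes), and by 6 in RP, all higher (6.14% of all genes). The median log2 fold change of the 41 genes over Null was -0.21 in AD and -0.07 in RP. Both medians rested in part on Null-604: without it they were -0.04 and 0.08, and 27 of 41 genes were negative in AD while 35 of 41 were positive in RP. Against irradiated Het, 26 members were called higher and 1 lower in AD (5.69% of all genes higher, 8.27% lower), and 34 higher and 1 lower in RP (8.53% higher, 10.2% lower). The member lower than in Het was Wdr12 in both, at -0.55 ± 0.06 in AD and -0.44 ± 0.06 in RP. Markers differed in the same comparisons. Thymic epithelial sums were 1016 to 1141 CPM in AD and 1047 to 1228 CPM in RP, against 1492 to 1848 CPM in Het, and 6 of 10 of these markers in AD and 5 in RP were called lower. Of the macrophage markers 6 in AD and 5 in RP were called lower, and of 12 proliferation markers 3 in AD and 8 in RP were called higher. AD-727 held hepatocyte markers at 313 CPM, against 14.7 to 19.6 CPM in the other AD libraries, and RP-653 and RP-656 at 77.1 and 62.3 CPM, against 12.3 and 22.1 CPM in the other RP libraries. The part of these lists was not tested. These comparisons share their Het and Null libraries, so their members' values are set side by side and not counted as separate support.

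Dkc1 stood at 91.4, 81.9, 86.1 and 92.1 CPM in irradiated AD and at 103, 96.7, 94.1 and 99.1 CPM in irradiated RP. All 8 were above the 4 Het libraries, and all but the 103 CPM of one RP library were below the highest of the 3 Null libraries other than Null-604. Gnl3 stood at 47.9, 42.2, 45.9 and 49.7 CPM in irradiated AD and at 50.9, 54.9, 48.2 and 50.8 CPM in irradiated RP. All 4 AD values were below the lowest irradiated Null library at 51.7 CPM. Wdr12 stood at 111, 117, 106 and 109 CPM in irradiated AD and at 120, 114, 126 and 119 CPM in irradiated RP, near the Null libraries in both.

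**Figure D3:**
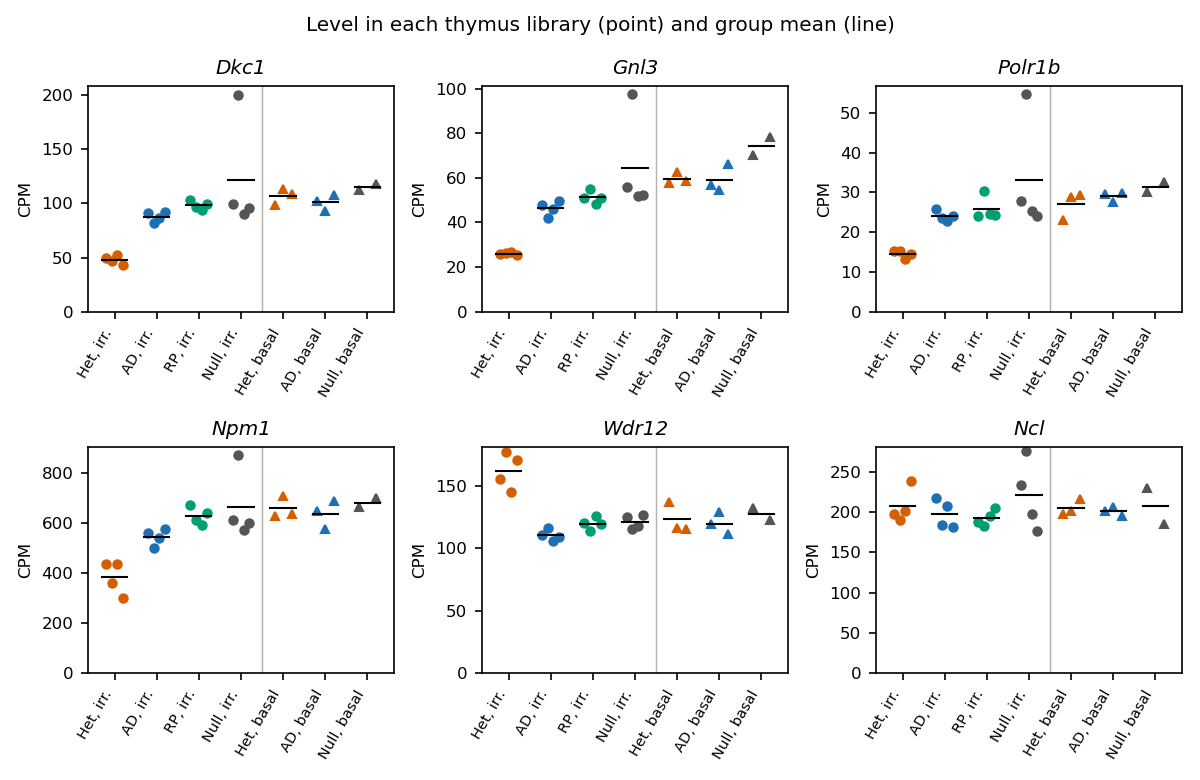
CPM of 6 genes in each thymus library (points, circles for irradiated and triangles for basal) with the group mean (line). Dkc1, Gnl3, Polr1b and Npm1 are lowest in irradiated Het, Wdr12 is highest there, Ncl overlaps across all groups, and the highest irradiated Null point of every panel except Wdr12 is Null-604.

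The AD and RP alleles could be tested against each other, as neither group holds libraries in which Dkc1 and Gnl3 were known to be lower. The spread came from the fit of all 16 irradiated libraries, so standard errors and p-values also rest on Het and Null, with Null-604. No gene of the genome was called between irradiated AD and RP thymus (0% of 22206 by edgeR and 0 members by DESeq2, which gave no adjusted p for 38 of the 41), and 1525 genes had an unadjusted p under 0.05, 3 of them members. The median log2 fold change of the members in AD over RP was -0.14, against 0.01 for all genes tested, and 40 of the 41 were negative. In 14 of the 41 all AD libraries were below all RP libraries, where 3.74% of all genes were. The lowest were Rrp9 at -0.29 ± 0.15 (adjusted p = 0.736 by edgeR), Grwd1 at -0.26 ± 0.11 (adjusted p = 0.701 by edgeR) and Nhp2 at -0.25 ± 0.19 (adjusted p = 0.811 by edgeR). Their approximate 95% intervals were -0.58 to 0.01, -0.46 to -0.05 and -0.61 to 0.11. The 12 proliferation markers were also all negative in AD over RP, with a median of -0.16, and their part was not tested.

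Without irradiation the genotypes lay close together. Het over Null basal thymus gave a median log2 fold change of -0.10, with 40 of 41 genes negative, and AD over Null gave -0.11, with all 41 negative. No member was called by edgeR in either, where 0.0676% of all genes were called in each (0.0406% higher and 0.0271% lower in Het, 0.0361% higher and 0.0316% lower in AD). DESeq2 called 0 in each, and 7 members in Het and 6 in AD had an unadjusted p under 0.05, all lower, where 7.18% and 7.69% of all genes had one. Gnl3 stood at 57.5, 62.7 and 58.6 CPM in basal Het and 56.6, 54.5 and 66.3 CPM in basal AD, against 70.2 and 78.1 CPM in basal Null. All 6 Het and AD values were below both Null values, at log2 fold changes of -0.31 ± 0.09 (adjusted p = 0.349 by edgeR) and -0.33 ± 0.09 (adjusted p = 0.283 by edgeR). Ppan, a large-subunit factor, was at -0.32 ± 0.09 in Het over Null (adjusted p = 0.341 by edgeR) and Dimt1 at -0.36 ± 0.12 (adjusted p = 0.461 by edgeR). In 20 of 41 members both Null libraries were above all 3 Het libraries, where 11.6% of all genes were, and in 12 of 41 both were above all 3 AD libraries, where 10.9% were. AD over Het gave a median of -0.002 with 20 genes positive and 21 negative, no gene called in the genome, 775 genes and 0 members with an unadjusted p under 0.05, and 0 members called by DESeq2. Markers separated the same groups. Fibroblast sums were 1459 to 1591 CPM in basal Het and 1420 to 1604 CPM in basal AD, against 1105 to 1248 CPM in basal Null, and adipocyte sums were 232 to 639 CPM in basal Het and 470 to 597 CPM in basal AD, against 174 to 183 CPM in basal Null. Their part in the members' values was not tested. With 2 Null mice these comparisons had little power.

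The response to irradiation was read within each genotype, between different animals. In Het, 34 members were called lower after irradiation and Wdr12 higher, against 8.09% lower and 8.74% higher among all 23605 genes tested, with a median of -0.64. Dkc1 was at -1.15 ± 0.18, Gnl3 at -1.20 ± 0.15, Grwd1 at -1.02 ± 0.11 and Wdr12 at 0.40 ± 0.07. Basal Het libraries held 98.1, 114 and 109 CPM of Dkc1, so the 4 irradiated Het libraries, at 43.4 to 52.1 CPM, were below each of them. In Null, no member was called (0.131% of all genes called, 0.0127% higher and 0.119% lower, 5 members lower at an unadjusted p under 0.05, as 7.27% of all genes were in either direction, 0 by DESeq2), and the median was -0.07. Without Null-604, 5 members were called lower in irradiated over basal Null, with 0.238% of all genes called lower and a median of -0.26 with all 41 negative. Those 5 were Gnl3, Ppan, Rrp12, Tsr1 and Wdr43, and Gnl3 was then at -0.48 ± 0.08. In that comparison without Null-604, all 79 ribosomal protein genes were negative (median -0.21), all 10 adipocyte markers were positive (1.40) and 9 of 10 fibroblast markers were positive (0.37), none of them called. Their part was not tested.

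In AD, 40 of 41 members were negative in irradiated over basal thymus, with a median of -0.20 against 0.01 for all genes tested. Neither side of this comparison holds libraries named in the choice of genes. The spread behind its p-values came from the fit of all 24 thymus libraries, which includes them. No member was called by edgeR (0.546% of all genes called, 0.165% higher and 0.381% lower) or by DESeq2, and 12 had an unadjusted p under 0.05, all lower, where 12.2% of all genes had one. The lowest were Rrp12 at -0.41 ± 0.14 (adjusted p = 0.249 by edgeR), Gnl3 at -0.35 ± 0.15 (adjusted p = 0.337 by edgeR), Tsr1 at -0.34 ± 0.11 (adjusted p = 0.207 by edgeR) and Grwd1 at -0.32 ± 0.10 (adjusted p = 0.203 by edgeR). In 19 of 41 members all 4 irradiated AD libraries were below all 3 basal ones, where 6.97% of all genes were. When the 2 AD groups were fitted alone, 3 members were called lower, Gnl3 (adjusted p = 0.038), Tsr1 (adjusted p = 0.0285) and Wdr43 (adjusted p = 0.0345 by edgeR), where 0.801% of all genes were called lower and 0.88% higher. Of the other pathway genes, Rrp15, a large-subunit factor, was called lower in AD (-0.45 ± 0.10). Markers of fibroblasts, adipocytes, macrophages and B cells were lower in irradiated than in basal AD thymus for all 10 genes of each list, none of them called, and the medians were -0.34, -0.67, -0.23 and -0.34. Their part in the nucleolar values was not tested.

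The difference between the Het and Null responses, fitted as an interaction, had a median of -0.58 over the 41 members. It was called for 12 lower members and for Wdr12 (0.47 ± 0.11), where 3.44% of all genes were called, 1.07% lower and 2.37% higher. Dkc1 was at -1.23 ± 0.28, Gnl3 at -0.99 ± 0.23 and Polr1b at -0.96 ± 0.29, the last not called. Without Null-604, Polr1b was at -0.61 ± 0.14 and was called lower. Without Null-604, 16 lower members and Wdr12 were called, where 1.01% of all genes were lower and 2.48% higher, and the median was -0.40. The count rested on the basal libraries: 2 members were called without basal Null-859, 7 without basal Null-923 and 8 without basal Het-703, where 1.8%, 1.79% and 2.3% of all genes were called. With the 4 groups fitted alone, 1 member was called (1.5% of all genes), and DESeq2 called 21 (5.15% of all genes).

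**Figure D4:**
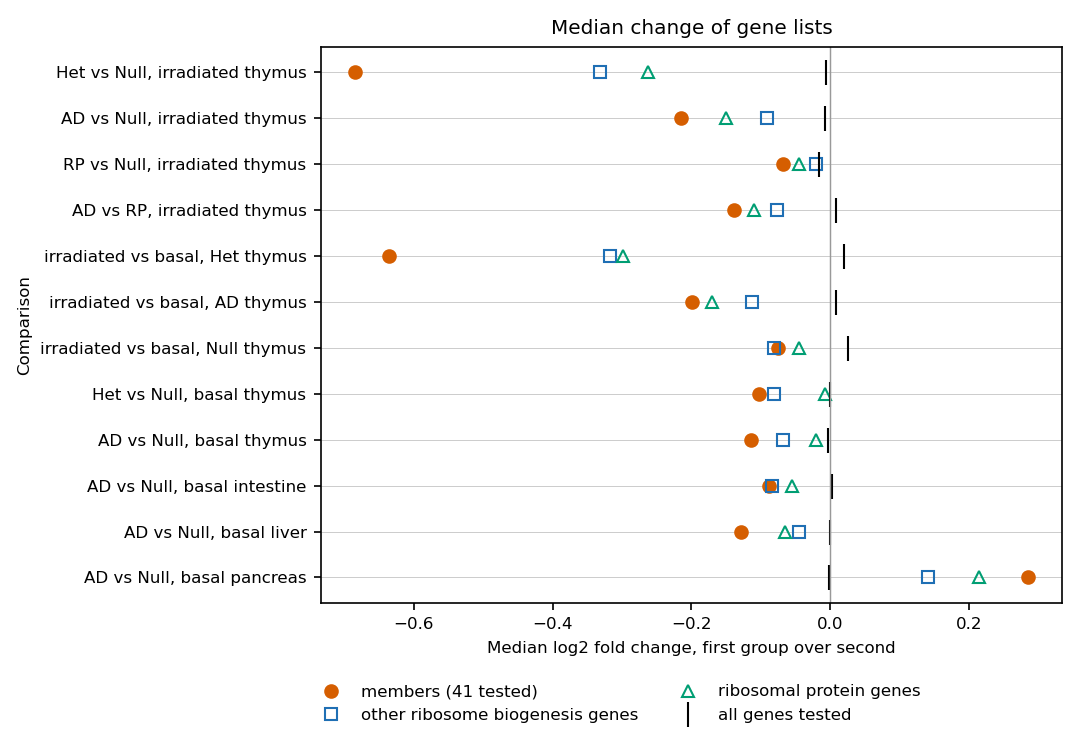
Median log2 fold change of the 41 tested members, of the other ribosome biogenesis genes, of the ribosomal protein genes and of all genes tested, in 12 comparisons (first group over second, all libraries). The members sit near -0.68 in irradiated Het over Null and near -0.64 in irradiated over basal Het, within 0.30 of 0 in the other comparisons, and above 0 in pancreas.

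Basal intestine, liver and pancreas allowed the AD allele to be compared with Null in other organs. No member was called in any of the 3. In intestine the median was -0.09 with 36 of 41 negative (0.015% of all genes called, 1 member and 6.09% of all genes with an unadjusted p under 0.05, 0 by DESeq2), and Nhp2 was lowest at -0.30 ± 0.12 (adjusted p = 0.804 by edgeR). The intestine median was -0.05 without AD-701. In liver the median was -0.13, but -0.02 without Null-1087 and -0.22 without Null-859, with 32 negative (0.267% of all genes called, 3 members, all lower, and 9.45% of all genes with an unadjusted p under 0.05, and 0 by DESeq2, which gave 2 members no adjusted p). Rrp12 stood there at 11.7, 7.60 and 8.16 CPM in AD, against 20.9, 10.3 and 16.3 CPM in Null, where AD-700 was above Null-859, a log2 fold change of -0.77 ± 0.26 (adjusted p = 0.402 by edgeR).

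In pancreas the members lay on the other side. The median log2 fold change in AD over Null was 0.29, against 0.00 for all genes tested, and 34 of the 41 were positive. The median was 0.16 without AD-701 and 0.33 without AD-702. No member was called by edgeR (0.0548% of all genes called, 0.0479% higher and 0.00685% lower) or by DESeq2, and 11 had an unadjusted p under 0.05, all higher, where 8.09% of all genes had one. In 15 of 41 all 3 AD libraries were above all 3 Null libraries, where 6.75% of all genes were. Dkc1 stood at 36.4, 36.8 and 22.4 CPM in AD pancreas, against 18.3, 19.2 and 18.9 CPM in Null pancreas. AD-702 was close to the Null libraries and the other AD libraries were well above them (0.73 ± 0.18, adjusted p = 0.272 by edgeR). Heatr1 stood at 78.4, 92.1 and 64.6 CPM in AD, against 54.8, 48.4 and 47.8 CPM in Null, with no overlap (0.61 ± 0.14, adjusted p = 0.243 by edgeR). Of 78 tested ribosomal protein genes, 77 were also positive in AD over Null pancreas, with a median of 0.21, while all 12 proliferation markers were negative, with a median of -0.29. The 10 acinar markers summed to 733007 to 867758 CPM in AD pancreas, against 574438 to 822452 CPM in Null pancreas, on the scale shared by the 4 tissues. All 6 tested adipocyte markers were positive, with a median of 0.79. The part of these lists in the members' values was not tested.

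The members were last compared between tissues, over basal AD and Null mice together (5 thymus libraries and 6 of each other tissue). Values here are CPM on a scale shared by the 4 tissues, on which thymus values are lower than on the thymus scale used above. The direction between tissues depended on the scaling. With library size alone and no TMM factors, a setting added after seeing the data, 40 members were called higher in thymus than in intestine, 40 higher than in liver and 41 higher than in pancreas, and none lower. The medians of the members were then 0.96, 1.52 and 1.996, beside 0.63, 1.75 and 2.22 for all genes, of which 52.2%, 71.0% and 77.6% were called higher. Relative to the median of all genes, the members stood at 0.33, -0.26 and -0.27 in thymus over intestine, liver and pancreas with TMM, and at 0.33, -0.23 and -0.22 without it. The counts that follow are on the TMM scale. Against intestine, 34 members were called higher in thymus and none lower, against 39.7% higher, 35.3% lower and 75.0% in all among 24431 genes tested. Their median of 0.47 compared with 0.14 for all genes. Against liver, 21 were higher and 8 lower, where 47.7% of all genes were higher and 31.6% lower, and the median of 0.26 was below that of all genes, 0.53. Against pancreas, 10 were higher and 17 lower, where 38.9% were higher and 31.5% lower, and the median was -0.04 against 0.22. Thymus libraries were far richer in dividing cells by their markers, with proliferation sums of 2048 to 2599 CPM, against 553 to 684 CPM in intestine, 150 to 284 CPM in liver and 227 to 339 CPM in pancreas. The intestine libraries held acinar markers at sums of 405 to 58945 CPM, so transcripts of acinar cells were abundant in some of them. Their part in the intestine values was not tested.

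Wdr12 and Dkc1 were among the members with the clearest excess in thymus. Wdr12 averaged 61.3 ± 4.32 CPM in thymus (SD, n = 5), against 11.6 ± 1.18 in intestine, 20.9 ± 3.55 in liver and 21.5 ± 4.34 in pancreas (SD, n = 6 each). No other tissue's library reached the lowest thymus value of 55.1 CPM. The log2 fold changes of thymus were 2.41 ± 0.11 over intestine (adjusted p = 1.41e-15 by edgeR), 1.56 ± 0.11 over liver (adjusted p = 4.07e-12 by edgeR) and 1.53 ± 0.12 over pancreas (adjusted p = 1.27e-11 by edgeR). Dkc1 averaged 53.1 ± 4.97 CPM in thymus, against 23.1 ± 1.92 in intestine, 19.2 ± 4.60 in liver and 25.3 ± 8.85 in pancreas, and was called higher in thymus over each. Npm1 was also called higher in thymus over each, by log2 differences of 1.24 ± 0.09 over intestine, 1.50 ± 0.09 over liver and 0.98 ± 0.09 over pancreas. Ncl and Nop56 were higher than in liver by 1.64 ± 0.09 and 1.62 ± 0.11.

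Other members were lower in thymus on the TMM scale. Nop16 and Nop10 were lower in thymus than in liver, at -1.32 ± 0.14 (adjusted p = 2.89e-09 by edgeR) and -1.03 ± 0.13 (adjusted p = 8.1e-08 by edgeR). Both listed subunits of RNA polymerase I were lower in thymus than in pancreas, Polr1b at -0.93 ± 0.11 and Polr1a at -0.81 ± 0.08, as was Mybbp1a at -0.90 ± 0.09. Without TMM factors Nop10 was higher in thymus than in liver (0.23), and Polr1b (1.12), Polr1a (1.23) and Mybbp1a (1.14) were higher in thymus than in pancreas. Per kilobase of exon, where genes can be compared, the level was highest in pancreas for 22 members, in thymus for 13, in liver for 6 and in intestine for 0, and it was lowest in intestine for 29. Without TMM factors it was highest in thymus for 40, in liver for 1 and in pancreas for 0. Npm1 led in every tissue, with 122 CPM per kilobase in thymus, against 52.0 in intestine, 43.5 in liver and 63.2 in pancreas. Nop10 came second in every tissue. Naf1 or Dimt1 was the lowest member in every tissue, with 1.14 CPM per kilobase of Naf1 and 2.01 of Dimt1 in thymus.

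**Figure D5:**
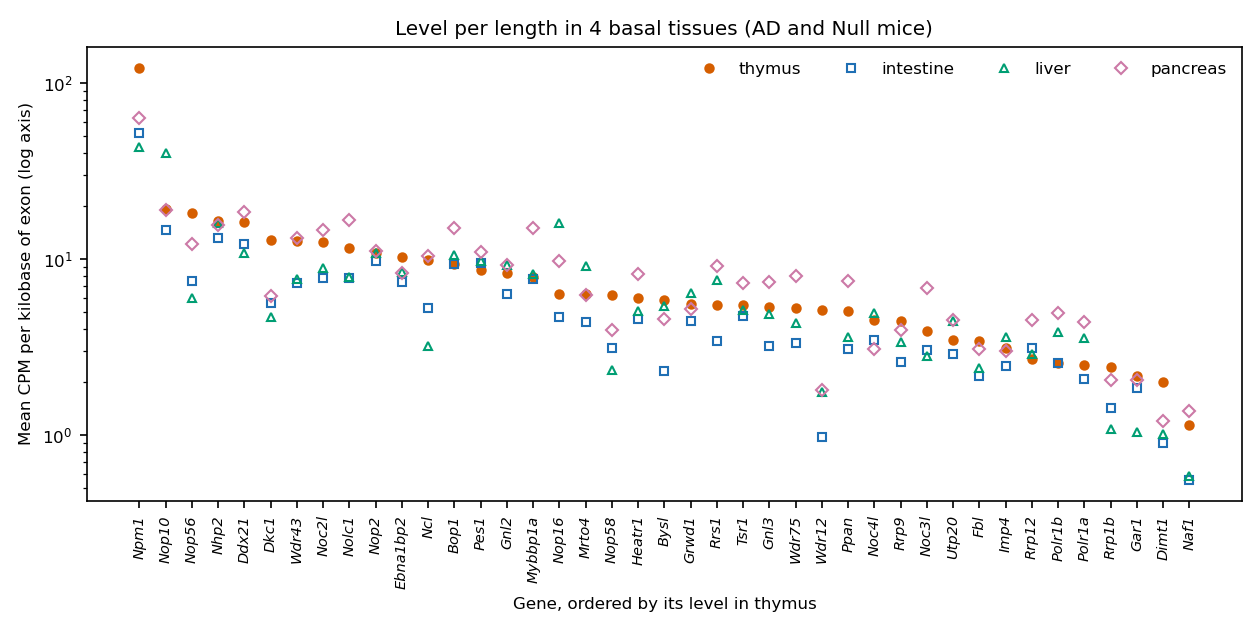
Mean CPM per kilobase of exon (log axis) of 41 members in basal thymus, intestine, liver and pancreas of AD and Null mice, ordered by the thymus level. Npm1 is highest in each tissue, Wdr12 and Dkc1 are set apart in thymus, and pancreas is highest for 22 members on this TMM scale, but for 0 without TMM factors.

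The genes whose level followed the members' mean most closely over the 24 thymus libraries were Srm, which makes the polyamine spermidine, the RNA methyltransferase Nsun2, and Atic, Gart and Ppat of purine synthesis. Pearson's r was 0.991, 0.986, 0.981, 0.981 and 0.980 among 17093 genes compared. Those 24 points share genotype groups, and they include the irradiated Het libraries and Null-604, which stand apart. Over the 13 group means of all tissues, the closest were Zmynd19, Eif1ax, Tma16, Prmt3 and Farsa, with r of 0.973, 0.951, 0.939, 0.930 and 0.928 among 17059 genes. Some counts can mix neighbouring transcripts, since the strand setting of the counting is not given in the sources used here. Exons of genes on the opposite strand cover 32.3% of the exon bases of Tsr1 (Srr), 31.9% of Dimt1 (Kif2a), 20.9% of Noc2l (Samd11) and 9.37% of Bysl (Ccnd3). In irradiated Het over Null thymus the partners stood at 0.02, -0.04, -0.42 and -0.18, beside -0.75, -0.40, -0.82 and -0.49 for the members. Nop56, Nop58, Ncl, Gnl3, Wdr43, Tsr1, Ppan and Dkc1 also hold genes of small nucleolar RNAs inside their own span on the same strand, 5 of them in Nop56.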

How the data were processed

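Total RNA was sequenced from 42 libraries, and the authors deposited 1 table of whole-number counts per gene. STAR (2.6.0b), DESeq2 and the build GRCm38 are named, per the submitters' processing notes, without their roles. The counter, the annotation release and the strand setting are not given in the sources used here. The 8 basal thymus columns carry no tissue name and were matched by mouse number and genotype. Gene symbols came from GENCODE M21, in which 49326 of 49585 identifiers were found. Of the listed comparison genes, Riok2, Snhg4 and Snhg7 were not found by symbol and were not used.

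Counts were tested with edgeR 4.0.16 (quasi-likelihood test, TMM scaling, filterByExpr) in R 4.3.3, in one fit for each of irradiated thymus, basal thymus, all thymus, each other tissue and the 4 basal tissues. P-values were adjusted by Benjamini-Hochberg over all genes of a fit, and an adjusted p under 0.05 was a call. Standard errors are the log2 fold change over the square root of the F statistic. Intervals are normal approximations at 95%, which can be narrower than intervals from the quasi-likelihood test. Levels are CPM on TMM-scaled library sizes, with 0.5 added before log2. Alternatives were RLE scaling, no filter on low counts, DESeq2 1.42.0, fits of only the groups compared, each library left out, a block for the mouse and, added after seeing the data, library size without scaling factors. The procedure was tested on simulated data.

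The members and all lists were chosen with earlier results of these data known. Members were named by role, with values in every library for Dkc1, Gnl3 and those at the extremes of a comparison; from other lists, at most 4 called genes in each direction with the largest change were named. Replicates within a group are separate mice, and p-values measure the spread within groups, pooled over the libraries of a fit. The p-values printed between tissues come from the fit without a block for the mouse. Basal libraries of different tissues share animal numbers in the labels, so they pair by mouse; over 33 such pairs of libraries the deviations from the group means had a median correlation of 0.110 (-0.0085 to 0.330). Counting error was not small for the members with the fewest counts, which fell to 25 for Naf1 and to 31 for Gar1 and Dimt1 in a library.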

Additional observations from a re-analysis of the deposited data

Results flagged for a closer look

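Irradiated Null-604 lay far from the other 3 irradiated Null libraries, judged by the gap to its nearest neighbour as a share of the group's whole range, against Dixon's 95% critical value for groups of 4. The share was 0.913 for the mean of all 41 members. By role it was 0.957 for box H/ACA, 0.886 for box C/D, 0.856 for the nucleolar proteins, 0.865 for the small subunit and 0.970 for the large subunit. Among single members it was 0.915 for Dkc1, 0.906 for Gnl3, 0.884 for Heatr1, 0.888 for Mrto4, 0.878 for Nop2, 0.860 for Npm1, 0.874 for Polr1b and 0.950 for Fbl. Dkc1 stood at 201 CPM in Null-604, against 95.2 ± 4.66 CPM in the other 3 (SD, n = 3).

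Irradiated RP-653 was high among the RP libraries for the mean of the RNA polymerase I subunits (0.892), Fbl (0.844), Heatr1 (0.932), Nop2 (0.895) and Polr1b (0.933). Irradiated Het-631 was low among the Het libraries for Fbl (0.948) and Nop2 (0.931), and irradiated AD-633 among the AD libraries for the mean of the nucleolar proteins (0.936). Of 164 sets of 1 member in 1 irradiated group, 36 passed, and 25 of them were Null-604. Chance passes about 1 in 20 such sets, and the sets share libraries.

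The interaction of irradiation with Het against Null in thymus was called for 13 members, where 3.44% of all genes were called. Its libraries include those used to choose the genes, so the count is a description and shows no difference by itself, and it ran from 1 to 22 over the other settings.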

How the results depend on the processing

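Of 343 recomputed counts, 326 stayed within 1.5 times the reported count. A reported count of 0 that stayed at 0 is among these, and many reported counts were 0, so the figure says less about the others. Without a filter on low counts, 1 member was called lower in basal Het over Null thymus (0.968% of all genes called), 1 lower in basal AD over Null thymus (1.1%), 1 lower in AD over Null liver (1.67%) and 2 higher in AD over Null pancreas (0.722%). With only the groups compared, 3 were called lower in irradiated over basal AD thymus (1.68%). For the interaction, DESeq2 called 21, the fit of its 4 groups alone 1 and library size without scaling factors 22 (4.32%). With 1 library left out at a time, the interaction gave 2 to 19 calls, irradiated over basal Null 0 to 5 (5 without Null-604), AD over Null pancreas 0 to 1 (1 higher without AD-702, 0.174%) and irradiated Het over Null 32 to 38. With all libraries, 3.44%, 0.131%, 0.0548% and 19.2% of all genes were called in these comparisons, in that order. Without 1 library, the log2 fold change ranged from -0.17 to 0.11 for Utp20 and from -0.18 to 0.032 for Ncl in irradiated Het over Null, from -0.43 to 0.039 for Dkc1 in irradiated RP over Null, and from -0.27 to 0.20 for Dkc1 in irradiated over basal Null. These 4 changed sign without Null-604, out of 103 fold changes of single members followed over the settings. More members did so when all 41 were read. In irradiated RP over Null 35 were negative with Null-604, and 35 were positive without it. In irradiated over basal Null 11 were positive with Null-604 and 0 without it. The cause was not tested. Without scaling factors, all 41 members were called higher in thymus over pancreas. The level per length was then highest in thymus for 40, in liver for 1 and in pancreas for 0. With TMM factors 22 of the 41 had been negative over pancreas, so all 22 turned positive. Over liver 15 had been negative and over intestine 2. Of the 103 fold changes followed singly, 6 of thymus turned positive. They were Rrp12 over intestine (0.31), Nop10 (0.23) and Polr1b (0.69) over liver, and Polr1b (1.12), Mybbp1a (1.14) and Polr1a (1.23) over pancreas. Without 1 library, pancreas was highest for 18 to 22 members. With a replicate block for the mouse, 34 members were called between thymus and intestine, 28 between thymus and liver and 26 between thymus and pancreas. Without the block these were 34, 29 and 27, where 75.0%, 79.3% and 70.4% of all genes were called. The block moved no count by over 1.5 times. Comparisons within a tissue are between different mice and allow no block. Groups of 2 to 4 mice limit the power of the basal comparisons.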
